A study of Mus musculus with 15 samples.

Results

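The genes described here are those of the cytosolic ribosome and of the translation factors that load and drive it, measured in mouse left ventricle after the operation labelled TAC and after a sham operation. They were chosen by name: every probe set of the array with a single gene symbol that begins with Rpl or Rps and a digit or p, with Eif or with Eef, leaving out Eif5a, Eif2s3x and Eif2s3y. That gave 83 genes on 114 probe sets, of 8251 genes and 12422 probe sets outside the array's controls. A probe set is a group of short oligonucleotides against 1 transcript, and its intensity, in arbitrary units, is the measure used throughout. Ribosomal proteins made up 34 of the genes (48 probe sets) and genes counted as translation factors 46 (63 probe sets). Those 46 include 8 genes of repressors and kinases that act on the factors, among them Eif4ebp1, Eif4ebp2, Eif4enif1 and Eef2k. They also include the methylating enzyme Eef1akmt1. The 3 genes in neither class, Rps6ka3, Rps6kb2 and Rps6kc1, are kinases or kinase-like proteins named after ribosomal protein S6, and not parts of the ribosome.

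Total RNA of the left ventricle was hybridised to 15 one-colour MG-U74Av2 arrays, for a study of hearts that enlarge under pressure overload. The groups were 3 female TAC hearts, 3 male TAC hearts, 3 female Sham hearts and 6 male Sham hearts, so that 6 TAC arrays stood against 9 Sham arrays. Sham hearts came from animals with a control operation. The labels give no strain, age, genotype or time after the operation, and do not spell out TAC, which in this field usually stands for transverse aortic constriction. Whether the 15 hearts were those of 15 animals is not stated, and the p-values reflect the spread between samples, which may be technical in part.

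Array medians lay between 21.3 and 26.7 units, and precision was limited by how many arrays each group had. Probe sets of the ventricular myocyte markers (Myh6, Myl2, Tnnt2 and others) summed to between 32075 and 39429 units on TAC arrays and between 31855 and 37854 on Sham arrays, so markers of the labelled tissue were high on every array. Of 5 genes listed as a check of the operation, 3 were called higher in TAC hearts (Nppa, Acta1 and Ankrd1). The 9 fibroblast markers summed to between 1700 and 2582 units on TAC arrays and between 1375 and 1818 on Sham arrays, 7 were higher and 2 lower in TAC hearts, and none was called. The 9 leukocyte markers summed to between 341 and 557 units on TAC arrays and between 375 and 484 on Sham arrays, and 3 of the 9 lay on every array below 20 units, the floor to which lower values were set. The part of these other cell types in the values below was not tested, and fewer cells of a type cannot be told apart from less RNA per cell in such samples.

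The ribosome is built from a small subunit, which reads the messenger RNA, and a large subunit, which joins the amino acids. Initiation factors (Eif genes) bring the messenger, the initiator tRNA and the small subunit together, and elongation factors (Eef genes) deliver tRNAs and move the ribosome along. When a heart grows under load its myocytes make more protein, and much of the known control acts on ribosome number and on the activity of these factors, through phosphorylation and the mTOR pathway. The arrays measured messenger levels only. How the deposited values were scaled is not known, and no measure of RNA yield was used here, so a change in the total amount of RNA of a heart was not measured.

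Mammalian ribosomal protein messengers are known for a tract at their very start, a C followed by a run of C and T, through which mTOR and the protein LARP1 adjust their translation. The windows below mark letters of this kind near the annotated start of genes whose values follow. They hold 15 bases before and 15 from that start, from RefSeq promoters of assembly GRCm38.p6. Capitals mark a C followed by at least 4 bases that are C or T, searched on the gene's strand and starting within 5 bases of the start.
Rps10 (chr17:27635230-27635259, minus strand): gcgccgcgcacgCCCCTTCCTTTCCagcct
Rps18 (chr17:33955651-33955680, minus strand): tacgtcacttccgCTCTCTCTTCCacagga
Rps27 (chr3:90213634-90213663, minus strand): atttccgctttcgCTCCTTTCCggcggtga
Rpl7a (chr2:26910792-26910821, plus strand): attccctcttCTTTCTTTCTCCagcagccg
Eef1a1 (chr9:78481710-78481739, minus strand): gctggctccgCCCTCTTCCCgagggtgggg
Eef1a2 (chr2:181157001-181157030, minus strand): tctctcctggtctgcgttctcgctcactgg
Rplp0 (chr5:115559452-115559481, plus strand): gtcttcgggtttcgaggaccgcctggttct

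The first 5 windows hold such a tract and the last 2 do not, as these letters are placed in RefSeq. The marked letters of each of the 5 begin 2 to 5 bases before the annotated start, within the 5 bases searched. In Rpl7a the run of C and T continues upstream of the marked letters, so their beginning there is set by that limit. Whether the marked bases are part of the messenger was not tested. Eef1a1 and Eef1a2 are shown as a pair because they code for the same elongation factor, Eef1a2 being the form of muscle and nerve. Promoters of 66 member genes were in the RefSeq table. A tract within 5 bases of any annotated start was found at 11 of 27 ribosomal protein genes (40.7%) and at 10 of 38 translation factor genes (26.3%). The share over all 27025 genes of the table was 21.2%. Some genes have several starts. Per start, the shares were 33.3% for ribosomal proteins, 25% for translation factors and 18.3% for all genes. A tract beginning exactly at an annotated start was found at 5 of the 27 genes (18.5%) and 1 of the 38 (2.63%), against 3.01% of all genes. Windows of 30 bases rich in C and T hold such letters without being a regulatory tract, and a start placed a few bases off can hide one.

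No ribosomal or translation factor gene was called changed between TAC and Sham hearts. Of the 114 probe sets, 80, from 66 genes, were bright enough to be tested, and 0 of the 80 passed an adjusted p of 0.05 for the TAC effect averaged over the sexes, against 0.322% of all 7453 tested probe sets (24). The lowest adjusted p of a member was 0.606 (limma). At an unadjusted p under 0.05, 1 member of 80 passed (1.25%), against 7.51% of all tested probe sets. Members' log2 changes, TAC minus Sham, ran between -0.31 and 0.28 with a median of -0.02, and the median over all tested probe sets was -0.03. This change was above 0 for 37 members and below 0 for 43 (46.2% and 53.8%), against 41.8% and 58.2% of all tested probe sets. Counts of probe sets or genes higher or lower in TAC hearts are counts of that sign. The sign is that of the fitted change, from floored values and averaged over the sexes, and can differ from that of the plain means.

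**Figure D1:**
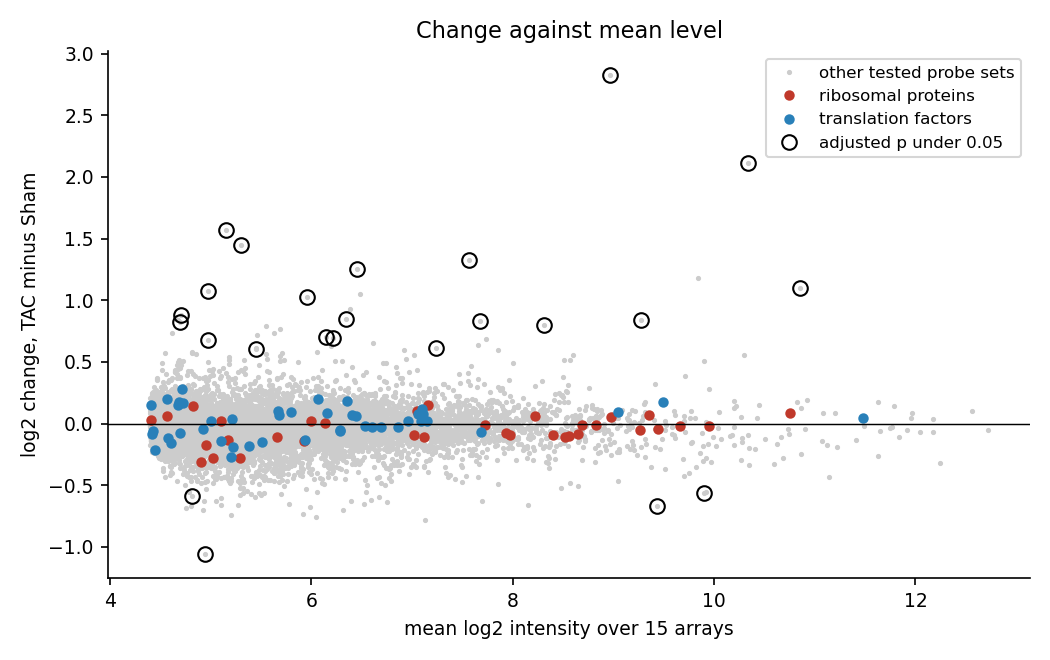
Each point is a tested probe set: the horizontal axis gives its mean log2 intensity over 15 arrays and the vertical axis its log2 change, TAC minus Sham, averaged over the sexes. Red and blue points are ribosomal proteins and translation factors, grey points all other probe sets, and circles the 24 with an adjusted p under 0.05, none of which is a member. The coloured points lie between -0.31 and 0.28.

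Intervals are summarised for the 62 tested members that read above the floor of 20 units on every array. The other 18 had values set to that floor, which narrows both change and interval. For 60 of the 62 the 95% interval of the change lay within 1.5-fold in either direction, against 90.1% of all 5115 tested probe sets above the floor on every array. Within 1.25-fold it lay for 23 of the 62 (37.1%), against 33.0%. The outer limits of the intervals of the 62 were 0.615-fold and 1.44-fold. No member had all 6 TAC arrays above all 9 Sham arrays, or all below them, against 0.255% and 0.161% of all tested probe sets.

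For 29 members every array read above 100 units, and these are the values farthest above background. Of these, 14 were higher and 15 lower in TAC hearts. Their log2 changes lay between -0.11 and 0.18, and every interval fell between 0.739-fold and 1.38-fold. Among the 1153 probe sets of the whole array at that level, 10 were called. Of those 1153, 534 were higher and 619 lower in TAC hearts. Over all tested members, 12 ribosomal protein probe sets were higher and 22 lower, with a median log2 change of -0.04, and 25 translation factor probe sets were higher and 20 lower, with a median of 0.02. Within the 29, the counts were 5 higher and 14 lower for ribosomal proteins and 9 higher and 1 lower for translation factors. Those 10 translation factor probe sets include 2 of Eif4ebp2, a repressor, and the lower one is of that gene. The counts of higher and lower probe sets were not tested against each other, and probe sets share arrays, so they are not independent.

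**Figure D2:**
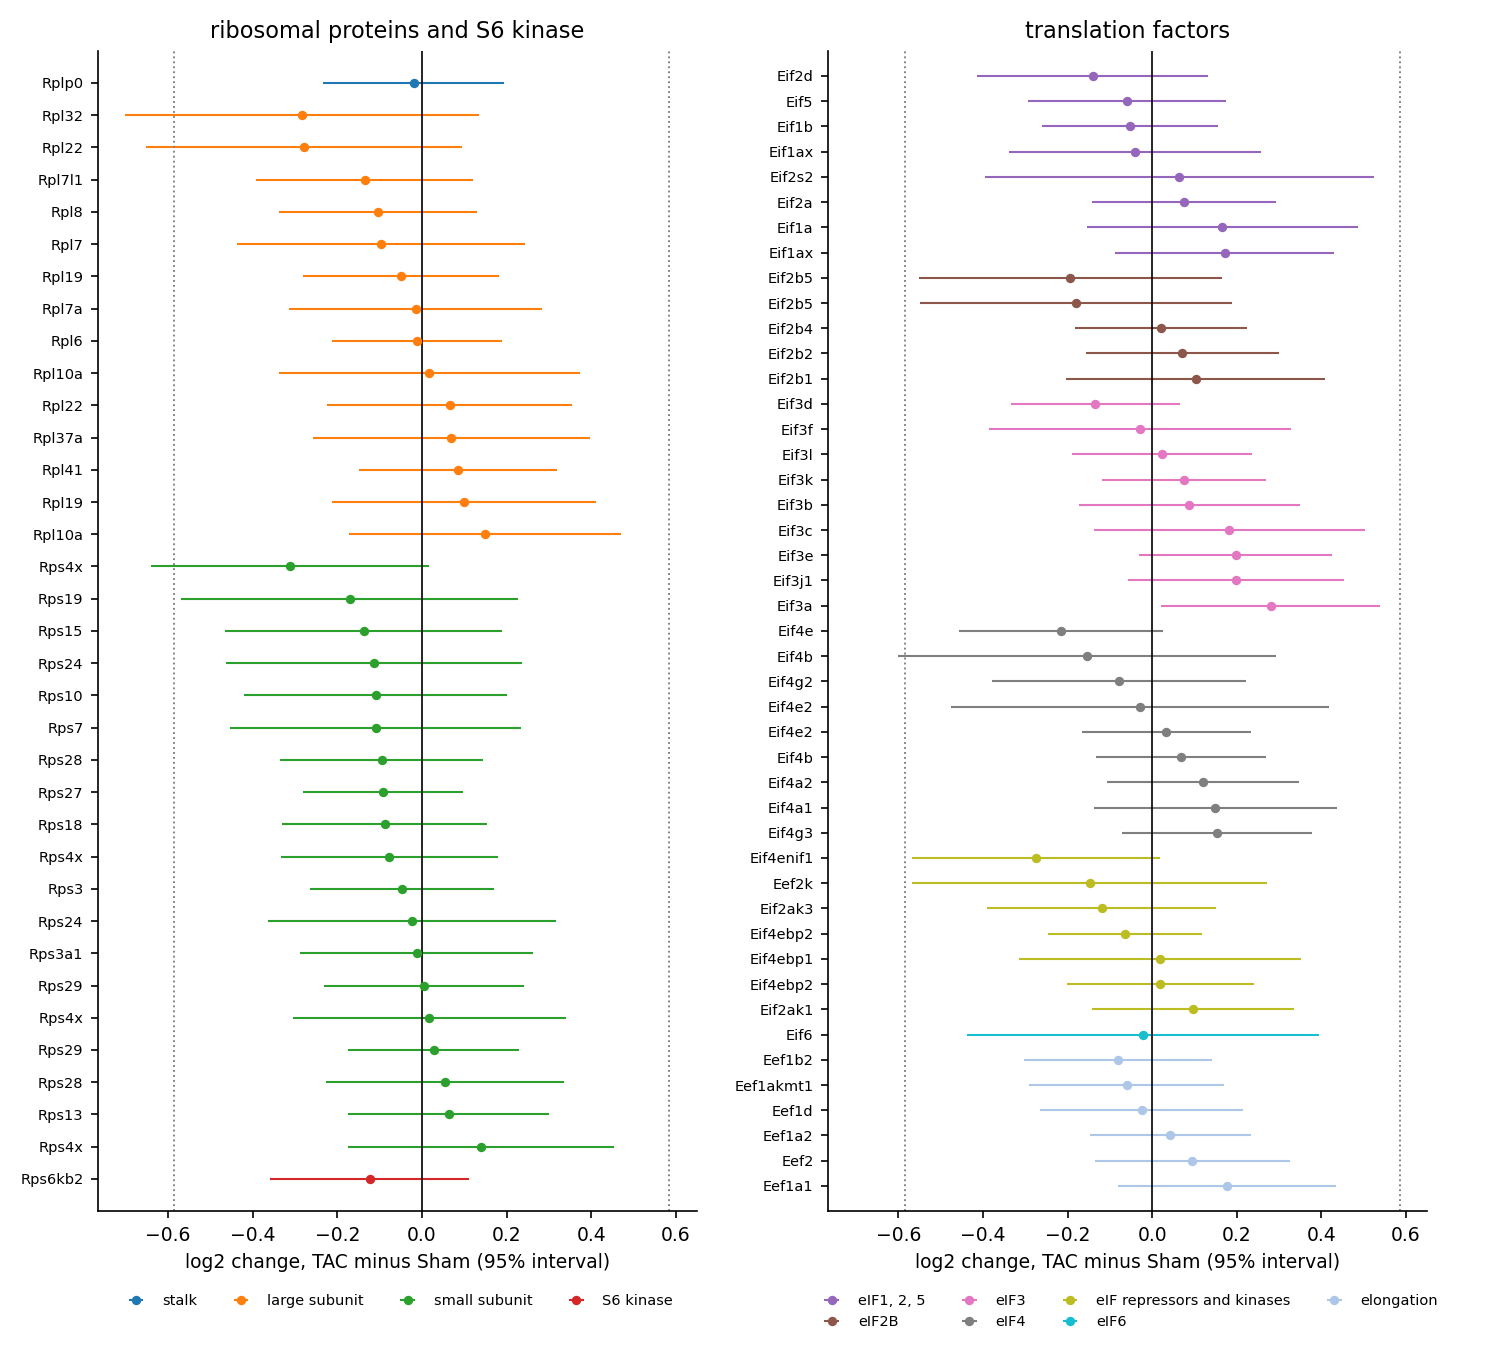
Points give the log2 change, TAC minus Sham, of each tested probe set with its 95% interval, ribosomal proteins and the S6 kinase at left and translation factors at right, coloured by role. A gene with several probe sets appears once for each, and dotted lines mark a 1.5-fold change in each direction; probe sets with values at the floor have intervals narrowed by it. All intervals but that of Eif3a cross 0, and those of 4 probe sets reach past a dotted line.

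Rplp0 codes for the central protein of the ribosomal stalk, the arm that engages elongation factors, and it is often used to scale other genes. Its intensity was 945, 1043 and 975 units on female TAC arrays, 972, 902 and 1110 on male TAC arrays, 1066, 985 and 1040 on female Sham arrays, and between 814 and 1180 on male Sham arrays, with a median of 967. The groups overlapped throughout, and its log2 change was -0.02 ± 0.10 (SE, adjusted p = 0.978, limma), with an interval of 0.851-fold to 1.14-fold.

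Large subunit proteins had 14 tested probe sets from 11 genes, 6 higher and 8 lower in TAC hearts, with a median log2 change of -0.01. Rpl41, a very short basic ribosomal protein, read between 1700 and 2003 units on TAC arrays with a median of 1739, and between 1160 and 1891 on Sham arrays with a median of 1702. All 6 TAC arrays lay within the Sham range or just above it, and the change was 0.09 ± 0.11 on the log2 scale. Its probe set is of the kind that can bind transcripts of a gene family. Rpl7a, whose window above holds a marked tract, was between 176 and 266 units on TAC arrays and between 151 and 278 on Sham arrays, with a log2 change of -0.01 ± 0.14.

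The large subunit genes of smallest p were lower in TAC hearts by amounts within their error. Rpl32 lay between 20.4 and 44.8 units (median 27.0) on TAC arrays and between 24.0 and 63.7 (median 37.2) on Sham arrays, a log2 change of -0.28 ± 0.20 (adjusted p = 0.810). Rpl22, whose loss is tolerated in mice, had a median of 34.8 units on TAC arrays and 41.4 on Sham arrays at 1 probe set, with a log2 change of -0.28 ± 0.18 (adjusted p = 0.779). Its second probe set gave 0.07 ± 0.14, so the 2 did not share a sign. Rpl7l1, a relative of Rpl7 that works in ribosome assembly, had a log2 change of -0.14 ± 0.12.

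Small subunit proteins had 19 tested probe sets from 13 genes, 6 higher and 13 lower in TAC hearts, with a median log2 change of -0.08. Rps18 read between 305 and 462 units (median 403) on TAC arrays and between 372 and 535 (median 395) on Sham arrays, and its log2 change was -0.09 ± 0.11. Rps10 read between 267 and 421 units (median 368) on TAC arrays and between 263 and 521 (median 378) on Sham arrays, a change of -0.11 ± 0.15. Rps10, Rps18 and Rpl7a have a marked tract in their windows above and were chosen for it after their values were seen.

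Rps27, a zinc-binding protein of the small subunit, read 138, 136 and 130 units on female TAC arrays and 110, 113 and 125 on male TAC arrays. On female Sham arrays it read 111, 145 and 141, and on male Sham arrays between 123 and 141. Its log2 change was -0.09 ± 0.09 (adjusted p = 0.872), and its 3 lowest values came from 2 male TAC hearts and 1 female Sham heart. Rps24 read between 632 and 990 units (median 841) on TAC arrays and between 454 and 1051 (median 877) on Sham arrays, with a change of -0.02 ± 0.16 at its probe set of higher mean. The annotation gives that probe set the same transcript as a probe set of Rpl7, so its gene is uncertain.

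Among tested ribosomal protein probe sets whose gene had a promoter in the RefSeq table, those with a start tract had a median log2 change of -0.07 (8 probe sets, -0.11 to 0.10). Those without a tract had a median of -0.01 (21 probe sets, -0.31 to 0.15). For translation factors the medians were 0.00 with a tract (10 probe sets) and 0.04 without (28 probe sets). These are descriptions of the annotated starts and were not tested.

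Rps4x, the X-linked small subunit protein, had 4 tested probe sets, which gave different pictures. The probe set of highest mean read 210, 253 and 252 units on female TAC arrays, 195, 219 and 311 on male TAC arrays, 234, 260 and 272 on female Sham arrays, and between 204 and 291 on male Sham arrays. Its values overlapped in all groups, with a log2 change of -0.08 ± 0.12 (adjusted p = 0.923).

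A dim Rps4x probe set, 162229_at, had the smallest p of all members for an unequal TAC effect in females and males. It read 39.8, 39.8 and 38.8 units on male TAC arrays, all above the 6 male Sham arrays at 14.2 to 35.1. On female arrays it read 32.3, 15.2 and 23.4 units in TAC hearts and 27.5, 39.3 and 37.4 in Sham hearts. The log2 change was -0.47 ± 0.23 in females and 0.75 ± 0.19 in males, a difference of -1.22 ± 0.30, female minus male, that passed the unadjusted threshold and had an adjusted p of 1.00 over all 7453 (limma). The probe set of highest mean gave a difference of -0.05 ± 0.24 between the sexes, and another, 162498_r_at, gave -0.16 ± 0.31. The remaining one, 161654_r_at, gave 0.36 ± 0.31 and, in males, the opposite sign, -0.49 ± 0.20. The sex difference thus appeared at 1 of 4 probe sets, near the floor, and 4 of its 15 values lay below that floor.

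**Figure D3:**
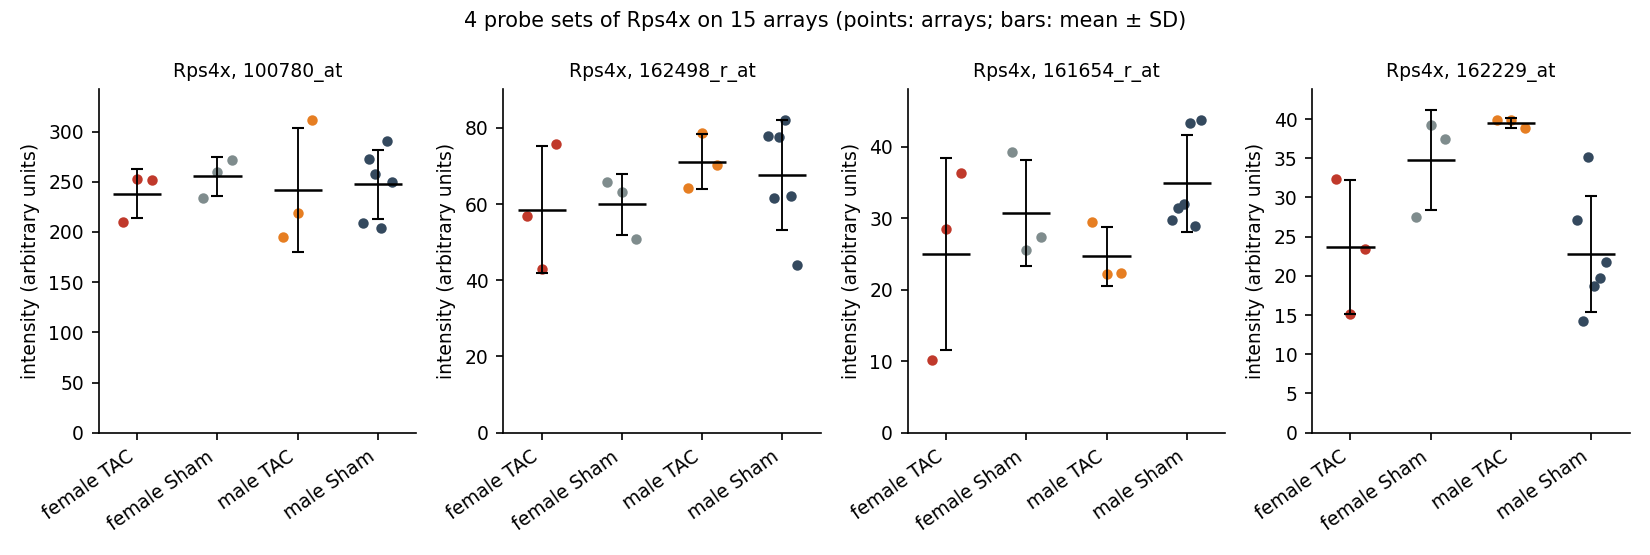
Intensity in arbitrary units on each array for the 4 tested probe sets of Rps4x, by sex and operation, with bars for mean and SD (n = 3, 3, 3 and 6 from left to right). At 162229_at, at right, the 3 male TAC arrays lie at 38.8 to 39.8 units, above the male Sham arrays, and the other 3 probe sets do not show it.

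Among initiation factors, eIF3, the large scaffold that holds the small subunit, had 9 tested probe sets, 7 higher and 2 lower in TAC hearts. Over all tested probe sets 41.8% were higher. None of the 9 was called, and the median log2 change of eIF3 was 0.09. Eif3a, its largest subunit, read 27.5, 32.9 and 27.8 units on female TAC arrays and 29.7, 26.4 and 34.7 on male TAC arrays. On Sham arrays it read 24.2, 28.4 and 22.7 in females and between 19.5 and 32.4 in males. TAC values lay in the upper range of Sham values or just above it, and the change was 0.28 ± 0.12 (1.21-fold, interval 1.02-fold to 1.45-fold). It was the member that passed the unadjusted threshold, and its adjusted p was 0.606 (limma).

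Eif3e read between 62.4 and 91.6 units (median 71.8) on TAC arrays and between 48.1 and 74.3 (median 64.4) on Sham arrays, a log2 change of 0.20 ± 0.11 (adjusted p = 0.740). In males alone its change was 0.32 ± 0.14. Eif3j1, a loosely bound subunit, had a log2 change of 0.20 ± 0.12 and Eif3c, a core subunit, one of 0.18 ± 0.15. Eif3d, which can bind the cap itself, had a lower mean in TAC hearts, with a log2 change of -0.13 ± 0.09. Eif3c and Eif3d were named after their values were seen.

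The factors that bind and unwind the capped end of the messenger (eIF4) had 9 tested probe sets, 5 higher and 4 lower in TAC hearts, with a median log2 change of 0.03. Eif4e, the cap-binding protein, was below the floor on all 6 TAC arrays, at 11.8 to 18.4 units, and between 15.2 and 30.7 units on Sham arrays, with 3 of 9 below the floor. With values under the floor taken as 20, the fitted Sham level at this probe set was 1.16-fold that of TAC. The log2 change, TAC minus Sham, was -0.22 ± 0.11, with an interval of 0.729-fold to 1.02-fold (adjusted p = 0.720, limma). With a floor of 3.09 units in place of 20 the change was -0.53 on the log2 scale, with an adjusted p of 0.377. A second Eif4e probe set was below the floor on every array.

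Eif4a2, a helicase of the complex, read between 127 and 165 units (median 149) on TAC arrays and between 107 and 168 (median 132) on Sham arrays, with a log2 change of 0.12 ± 0.11. Eif4g3, a scaffold, had a log2 change of 0.15 ± 0.11 (adjusted p = 0.806). Eif4e2, a cap-binding relative that can repress translation, was the other member with an unadjusted p under 0.05 for a sex difference. It read 38.8, 48.3 and 36.9 units on female TAC arrays and 37.1, 30.6 and 35.5 on female Sham arrays, and 32.9, 33.2 and 34.5 on male TAC arrays against 34.1 to 42.1 on male Sham arrays. The change was 0.26 ± 0.14 in females and -0.19 ± 0.12 in males, a difference of 0.45 ± 0.19, female minus male (adjusted p = 1.00, limma). A second, brighter Eif4e2 probe set, 161911_f_at, read 78.4, 117 and 108 units on female TAC arrays and 115, 120 and 111 on female Sham arrays. On male arrays it read 102, 104 and 120 units in TAC hearts and between 48.6 and 145 in Sham hearts. Its averaged log2 change was -0.03, and the rise in females was not seen there.

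Factors that find the start codon (eIF1, eIF1A, eIF2, eIF5 and relatives) had 8 tested probe sets, 4 higher and 4 lower in TAC hearts, with a median log2 change of 0.01. Eif1ax had a log2 change of 0.17 ± 0.12, Eif1a one of 0.17 ± 0.15 and Eif2d one of -0.14 ± 0.13, each with an adjusted p above 0.8. A second probe set of Eif1ax gave -0.04. The exchange factor eIF2B, which recharges eIF2 and is a control point of protein synthesis, had 5 probe sets, 3 higher and 2 lower. Both probe sets of its catalytic subunit Eif2b5 were lower in TAC hearts, with changes of -0.19 ± 0.17 and -0.18 ± 0.17. Eif2b1, a regulatory subunit, had a log2 change of 0.10 ± 0.14.

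Among genes that hold translation back, of 7 tested probe sets, 3 were higher and 4 lower in TAC hearts, with a median log2 change of -0.06. Eif4enif1, which carries eIF4E into the nucleus and represses messengers, read 38.1, 31.0 and 34.4 units on female TAC arrays and 25.4, 50.0 and 26.5 on male TAC arrays, against 47.1, 45.0 and 38.2 on female Sham arrays and 32.3 to 43.2 on male Sham arrays. Its change was -0.27 ± 0.14 (adjusted p = 0.695), with 1 male TAC array the highest of all 15. Eif2ak3, the kinase PERK of the unfolded protein response, had a log2 change of -0.12 ± 0.13 and Eif2ak1, the heme-regulated kinase, one of 0.10 ± 0.11. Eif4ebp1, which blocks eIF4E until mTOR phosphorylates it, had a change of 0.02 ± 0.16. Eef2k, the kinase that inhibits Eef2, had a log2 change of -0.15 ± 0.20, and these last 2 were named after their values were seen.

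Eif6, which keeps new large subunits from joining too early, was between 53.1 and 146 units (median 97.9) on TAC arrays and between 56.9 and 126 (median 94.0) on Sham arrays, a log2 change of -0.02 ± 0.20. Its spread left a wide interval, from 0.739-fold to 1.31-fold. Rps6kb2, a kinase of ribosomal protein S6 and the tested gene of its kind, read between 77.8 and 108 units on TAC arrays and between 79.8 and 118 on Sham arrays, with a change of -0.12 ± 0.11.

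Elongation factors had 6 tested probe sets, 3 higher and 3 lower in TAC hearts, with a median log2 change of 0.01. One of the 6, Eef1akmt1, codes for an enzyme that methylates elongation factor 1A and not for a factor. Eef1a2, the muscle form of the factor that delivers tRNAs, read 2807, 3020 and 3156 units on female TAC arrays and 2698, 2906 and 2901 on male TAC arrays. It read 2896, 2783 and 2837 on female Sham arrays and between 2517 and 3455 on male Sham arrays. The groups overlapped, and the change was 0.04 ± 0.09, with an interval of 0.903-fold to 1.18-fold.

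Eef1a1, the form of most other tissues and the one with a tract marked near its annotated start, read 645, 1029 and 844 units on female TAC arrays. On male TAC arrays it read 674, 735 and 820. Sham arrays read 673, 738 and 705 in females and between 563 and 813 in males. The top 3 values were all from TAC hearts and the remaining TAC values lay among the Sham values, with a change of 0.18 ± 0.12 (adjusted p = 0.804). Eef2, which moves the ribosome by a codon, read between 530 and 600.5 units on TAC arrays and between 345 and 577 on Sham arrays, with a change of 0.10 ± 0.11 (adjusted p = 0.890). Eef1b2, an exchange factor for elongation factor 1A, was below the floor on 9 of 15 arrays.

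**Figure D4:**
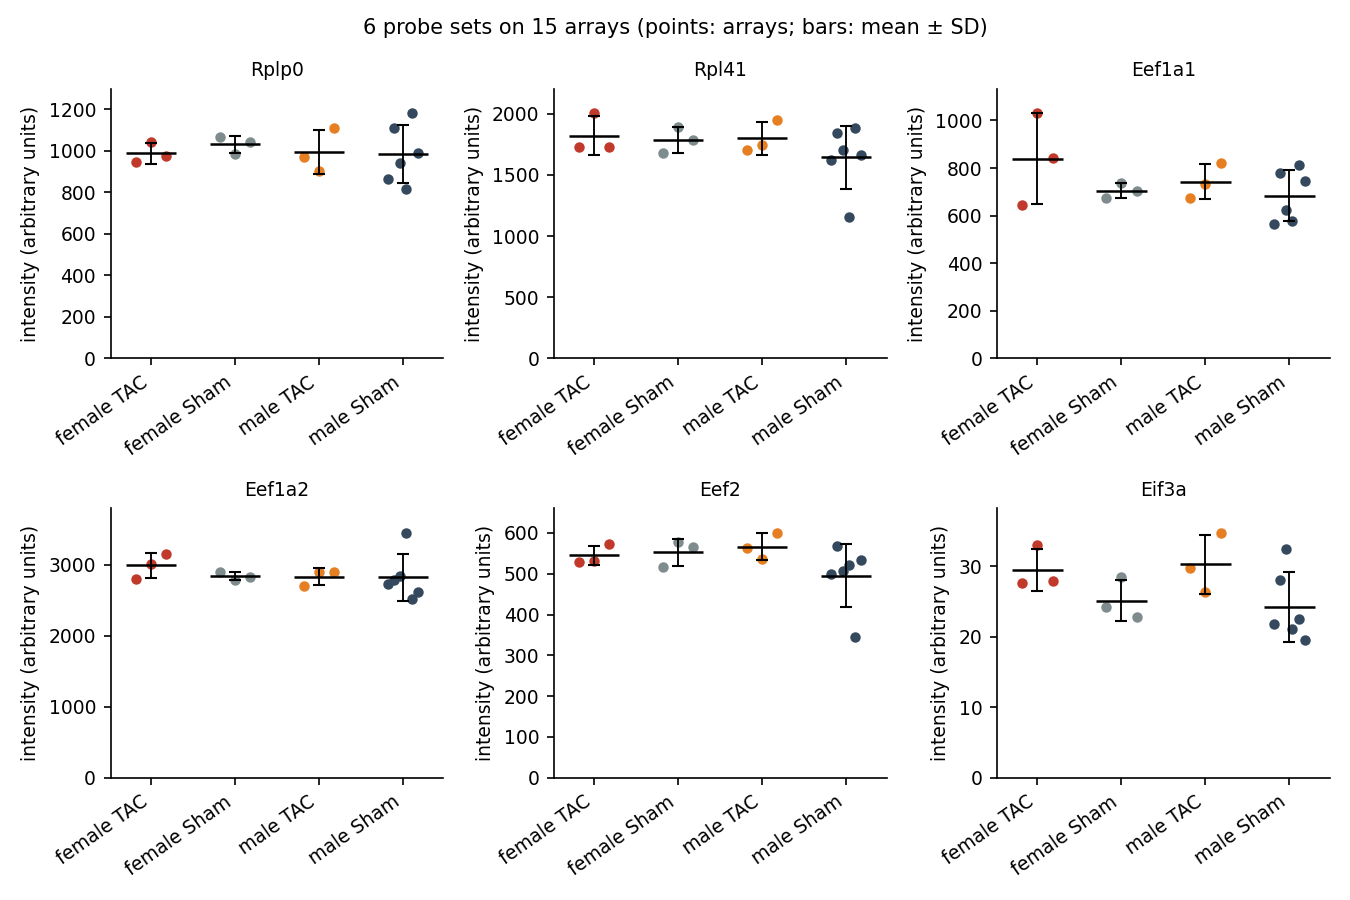
Intensity in arbitrary units on each array for 6 members, by sex and operation, with bars for mean and SD (n = 3, 3, 3 and 6 from left to right) and axes from 0. In every panel values of TAC and Sham hearts overlap, and single male Sham arrays lie apart for Rpl41 (1160 units), Eef1a2 (3455) and Eef2 (345).

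The effect was also read within each sex. In females no member was called, against 0.0805% of all tested probe sets, and 0 of 80 had an unadjusted p under 0.05, against 4.59%. In males none was called, against 0.134%, and 3 of 80 had an unadjusted p under 0.05 (3.75%), against 6.20%. These 3 were Eif3e and both dim Rps4x probe sets that moved in opposite directions. For the difference between the sexes no probe set of the array was called in limma, 2 members had an unadjusted p under 0.05 (2.50%) and so had 2.56% of all tested probe sets (191). The change had the same sign in both sexes for 44 of 80 members (55.0%), against 58.1% of all tested probe sets.

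For each array, the median deviation of the 34 tested ribosomal protein probe sets from their own mean over 15 arrays was taken on the log2 scale. It lay between -0.13 and 0.19 on TAC arrays and between -0.16 and 0.22 on Sham arrays, so the groups covered the same range. The highest medians were those of male Sham 8, male TAC 6 and male Sham 5, and the lowest those of male Sham 7, male Sham 4 and female TAC 1.

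Over all tested probe sets the array medians covered -0.11 to 0.09 on TAC arrays and -0.07 to 0.07 on Sham arrays. On female TAC 1, 28 of the 34 ribosomal protein probe sets (82.4%) stood below their own mean, as did 70.4% of all tested probe sets. On male Sham 5, 5 of 34 did (14.7%), against 42.5% of all. On male TAC 6, 6 of 34 stood below (17.6%, against 44.1% of all), and on male Sham 4, 26 of 34 (76.5%, against 57.6%). The most evenly divided arrays were female TAC 3, with 14 of 34 below (41.2%, against 43.1% of all), and female Sham 1, with 20 of 34 (58.8%, against 50.2% of all). Translation factors covered -0.10 to 0.14 on TAC arrays and -0.12 to 0.12 on Sham arrays. What set these deviations was not tested.

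**Figure D5:**
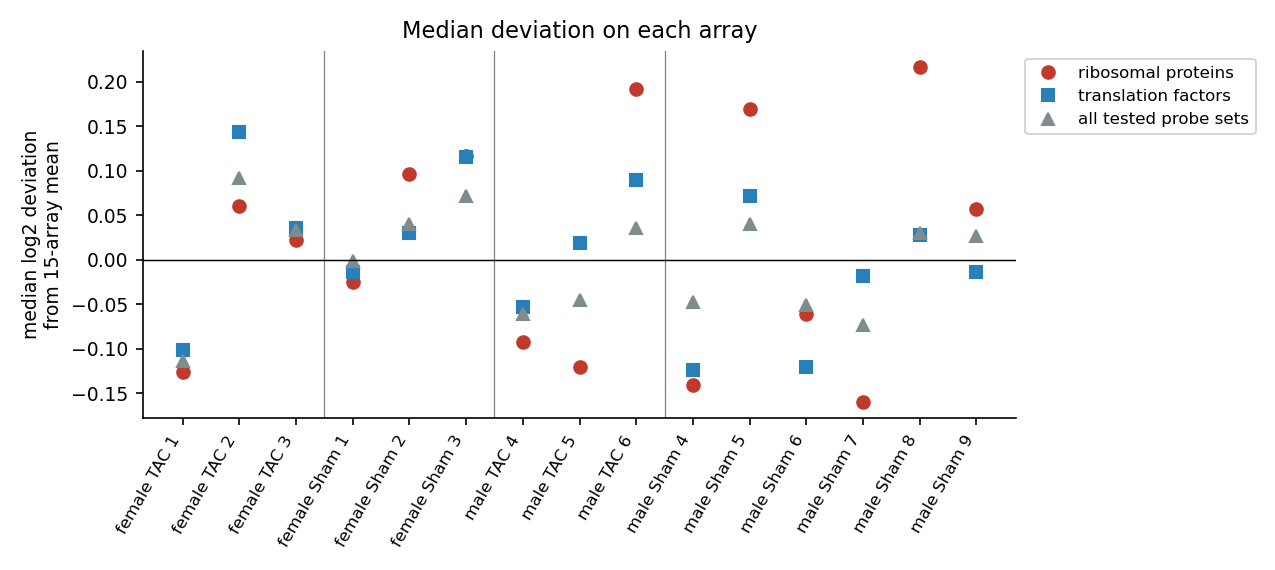
Median log2 deviation from the mean over 15 arrays, per array, for 34 ribosomal protein probe sets (circles), 45 translation factor probe sets (squares) and all 7453 tested probe sets (triangles), with arrays grouped by sex and operation. Ribosomal protein medians lie between -0.13 and 0.19 on TAC arrays and between -0.16 and 0.22 on Sham arrays.

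The 34 untested probe sets are part of the account. Of these, 17 were below the floor on every array, among them all probe sets of Rpl38, Rpl39, Rpl39l and Rps14. In all, 17 of the 83 genes had no tested probe set, including Rpl13a, Rps20, Eif5b and Eif2ak4. A low reading at a probe set need not mean a low level of the gene's messenger. For Rps28, 1 probe set read between 0 and 12.0 units and another between 261 and 472 on the same arrays. Whether low readings came from weakly expressed genes or from probe sets that report their gene poorly was not tested. That holds also for tested probe sets near the floor, such as those of Rpl32 and Eif4e. Of 12 genes with several tested probe sets (26 probe sets), 8 had changes of opposite sign, and none differed by more than 0.5 on the log2 scale. A further 40 probe sets carried several symbols of which one follows the naming rule, mostly with pseudogenes. They were left out, and of the 32 that were bright enough none was called, against 0.322% of all tested probe sets. The smallest p among them was that of Rpl3 at 100734_at, 1.25-fold higher in TAC hearts. Its interval was 1.03-fold to 1.51-fold (unadjusted p = 0.0237, adjusted p = 0.553, limma). The other Rpl3 probe set gave a log2 change of -0.12.

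Of 69 tested genes in 6 further lists of the translation pathway, each read at 1 probe set, 1 was called (1.45%). The share over all tested probe sets was 0.322%, which counts probe sets and not genes. Of the 69, 31 were higher and 38 lower in TAC hearts. Of 24 tested ribosome biogenesis genes, 12 were higher and 12 lower in TAC hearts and none was called. Fbl, the methyltransferase fibrillarin of the nucleolus, read between 129 and 144 units on TAC arrays and between 88.6 and 127 on Sham arrays, with all 6 TAC arrays above all 9 Sham arrays. Its log2 change was 0.41 ± 0.09 (adjusted p = 0.0711), and it passed 0.05 in 8 of 25 alternative settings, with adjusted p between 0.0105 and 0.217. Ncl, nucleolin, which works on pre-ribosomal RNA, read between 214 and 372 units on TAC arrays and between 81.7 and 235 on Sham arrays, a change of 0.64 ± 0.19 (adjusted p = 0.310), and was called in 0 of 25 settings.

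Of 14 tested genes of growth signalling to translation, 6 were higher and 8 lower in TAC hearts, and 1 was called. Pik3ca, a catalytic subunit of PI3 kinase upstream of mTOR, fell to between 17.1 and 25.0 units on TAC arrays, against 26.1 to 42.1 on Sham arrays, with a log2 change of -0.59 ± 0.12 (adjusted p = 0.0459). The groups did not overlap, 3 of 6 TAC values lay below the floor, and the call held in 6 of 24 alternative settings, with adjusted p between 0.0122 and 0.328. Ddit4, an inhibitor of mTOR, had a change of 0.50 ± 0.16 (adjusted p = 0.373).

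Of 13 tested cytosolic tRNA synthetases, which charge tRNAs with amino acids, 6 were higher and 7 lower, the arginyl enzyme Rars with a change of 0.34 ± 0.13 (adjusted p = 0.481) and the leucyl enzyme Lars with 0.20 ± 0.12. Of 7 genes of termination and the poly(A) tail, 3 were higher and 4 lower, Pabpc1, the poly(A)-binding protein, with 0.17 ± 0.09 and Abce1, which splits ribosomes after termination, with -0.18 ± 0.12. Of 10 genes that receive the nascent chain, 4 were higher and 6 lower, Sec61b, part of the channel into the endoplasmic reticulum, with -0.27 ± 0.10 (adjusted p = 0.447) and Ssr2, which sits beside that channel, with 0.22 ± 0.13. Rpsa, a small subunit protein under another symbol, had -0.03 ± 0.15.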

How the data were processed

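The authors deposited probe-set intensity values on a linear scale for 15 arrays. The sources used here do not name the software, background correction or scaling behind them. The medians lay within a ratio of 1.26, and that level was kept. Values were floored at 20 (between 42.4% and 48.4% of an array's probe sets lay below it), log2 was taken, and the 60% of the 12422 non-control probe sets with the highest mean were tested (7453). Changes of dim probe sets are made smaller by this floor.

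A model with 4 group means was fitted with limma 3.58.1 (lmFit, eBayes) in R 4.3.3. Contrasts were TAC minus Sham averaged over the sexes, in each sex, and the difference, female minus male. Benjamini-Hochberg adjustment ran over all tested probe sets, and calls were made at an adjusted p of 0.05. Errors after ± are SE, and intervals are 95%. The method was tested on simulated data, where 47.8% of 67 changes of 0.5 on the log2 scale were called, and 100% of 67 changes of 1. There were 9 false calls, and changes smaller than 0.5 were not simulated. Recovery was not given apart for probe sets with values at the floor, where changes are made smaller, so it may be too high for them.

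Symbols came from the platform annotation, and 10817 of 10833 single-symbol probe sets matched a GRCm38.p6 gene table. Members, gene lists and roles were chosen with earlier results of these data known. Named members were any called, of those with unadjusted p under 0.05 up to 8 rises and 8 falls, the 3 of smallest p in each role and for the sex difference, the 5 of highest mean, and genes whose probe sets differed by over 0.5. In other lists they were called genes and up to 2 of smallest p.

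Settings varied were the scaling (median centring, quantile normalization), the floor (3.09, or an offset of 20), the filter (none, or the top 40%), eBayes (trended and robust), array weights, no term for sex, fits of 1 sex, a replicate block and leaving out each array. Adding probe sets of several symbols, and 1 probe set per gene, were chosen after seeing the data. The labels give no batch.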

Additional observations from a re-analysis of the deposited data

Results flagged for a closer look

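In the male Sham group, single arrays stood apart from the other 5 at 4 of the 32 named probe sets, by Dixon's ratio above 0.625, which chance gives about 1 time in 20. Rpl41 read 1160 units on male Sham 7, against 1624 to 1884 on the others. Eef1a2 read 3455 units on the same array, against 2517 to 2843. Eef2 read 345 units on male Sham 8, against 498 to 568. Rpl32 read 63.7 units on male Sham 4, against 26.8 to 39.99.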

How the results depend on the processing

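No member was called for the averaged effect under any of the alternatives run, those that left out 1 array included, and the members' median log2 change lay between -0.04 and 0.02 with each array left out. The count over all tested probe sets, 24 for the averaged effect, was 42 with quantile normalization, 41 with median centring, 10 with the lower floor, 13 without a filter, 68 with array weights and 8 with the replicate block, and 12 to 29 without 1 array. It was 12 without male TAC 5, 14 without female Sham 1, 2 or 3, and 15 without male Sham 6 or female TAC 2. In females, 6 calls became 10 with trended and robust eBayes, 36 with array weights, 3 with the block, 2 with female arrays alone and 2 to 8 without 1 array, with 2 without female Sham 1 and 3 without female TAC 3. In males, 10 calls became 3 with the lower floor, 6 with the offset, 4 without a filter, 16 with trended and robust eBayes, 3 with the block and 3 to 12 without 1 array. They fell to between 3 and 6 without male TAC 4 or 5, female TAC 3, female Sham 1, 2 or 3, or any male Sham array. The sex difference had 0 calls at each setting. The cause was not tested. Same-numbered arrays of TAC and Sham were compared by their deviations from the group means, and not by their whole profiles. These deviations correlated at 0.244, 0.270 and 0.117 in females and at 0.0641, -0.0828 and 0.0136 in males. Because the male values were small and mixed in sign, the numbers were not taken as pairs in either sex. The female values were all positive, and the replicate block is the setting that takes the numbers as pairs. Low signal over background limits what can be said of the 34 untested probe sets, and was not taken as a measure of how strongly their genes are expressed.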
